A study of Mus musculus with 72 samples.

Results

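The vesicle release machinery was described in single Pet1 neurons of the mouse dorsal raphe (DR) as a set of 82 genes, out of 17231 genes in the table of droplet (10X) cells. The genes were chosen by name, taking numbered synaptotagmins, syntaxins and SNAPs, all VAMPs, syntaxin-binding proteins, complexins, RIMs and UNC13 proteins, synapsins 1 to 3, SV2 proteins and every symbol that starts with Rab3, and by having at least 1 UMI (a unique molecular identifier, which marks 1 captured RNA molecule) in at least 10 cells. Among 85 matching symbols, Stx11, Stx19 and Syt15 had UMIs in 9, 5 and 5 cells and were left out. The name rule also took in genes outside the release machinery proper: 11 genes from Rab30 to Rab39, 4 regulators of Rab3 and Snap91, a clathrin adaptor.

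The study marked cells with a history of Pet1 (Fev) expression, a transcription factor of serotonin neurons, and sequenced them in droplets or singly after manual collection. The 10X cells came from the full DR of mice labelled Pet1::Flpe+/-; hM3Dq+/+ (mean postnatal day 65.5) or En1::cre+/-;Pet1::Flpe+/-;RC::FrePe+/- (mean postnatal day 59), where the Pet1 driver sets Flpe and, in the second genotype, the label needs Cre from En1 as well. No Cre was used with hM3Dq, so those cells carried EGFP alone, and each run pooled several mice. The deposited table holds 2350 cells with barcodes of 2 endings, 869 and 1481 cells, that share no barcode and are not tied to a run or animal, so they are called barcode sets 1 and 2 and the table was taken as 1 sample. The 70 manual cells formed 8 groups, all Pet1::Flpe+/-;RC::FrePe+/- with a Cre. Sert::cre+/- marked 10 cells of the dorsolateral (dlDR), 9 of the dorsomedial (dmDR) and 8 of the ventromedial DR (vmDR) at postnatal days 63 and 90. It also marked 6 cells of the caudal DR (cDR) at day 63. P2ry1::cre+/- marked 10 cDR cells at days 62 to 74. Npy2r::cre+/- marked 10 cDR and 9 rostral (rDR) cells at days 77 and 87, and Crh::cre+/- marked 8 rDR cells at days 83 and 119. A Cre that was active at any earlier time also labels a cell in such crosses. Cells of different days came from different mice, but no label ties a cell to an animal, so a group was taken as 1 sample, no test between groups was run and no p-value is given. Intervals cover counting error at 95% and nothing else.

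Neurons release transmitter when synaptic vesicles fuse with the plasma membrane. SNARE proteins of the vesicle (VAMPs) and of the target membrane (syntaxins and SNAP-25) zip together, assisted by Munc13 proteins (Unc13 genes) and RIMs, which prime and place vesicles at the active zone. Complexins clamp and activate the assembled SNAREs, synaptotagmin 1, 2 or 9 senses calcium for fast release, Rab3 GTPases and synapsins tether and cluster vesicles, and SV2 proteins are vesicle glycoproteins. Serotonin neurons use this machinery to release serotonin, and subsets also express Slc17a8 (the vesicular glutamate transporter VGLUT3) or Gad2 (a GABA-synthesising enzyme).

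The 10X cells were divided into exclusive classes by UMIs of 4 genes that are not members. The low-Tph2 class (131 cells) had under 500 CPM (counts scaled to a total of 1000000) of Tph2, the serotonin-synthesis enzyme of the brain. Of the rest, 93 cells with at least 3 UMIs of the receptor gene Met formed the Met class, 256 with at least 3 UMIs of both Gad2 and Slc17a8 the both class, 872 the Gad2 class and 684 the Slc17a8 class, and 314 cells reached neither. The limits are positions on a range: 340 cells had a Gad2 or Slc17a8 count of 2 or 3, and 18 cells had Tph2 between 400 and 600 CPM. Scrublet, a doublet caller, marked 14 cells, 9 of them in the both class. Median depth was 62061 UMIs per cell in the Gad2 class, 63265.5 in the Slc17a8 class, 64277 in the both class, 51409.5 in the neither class, 46273 in the Met class and 27329 in the low-Tph2 class. Summed levels of 5 serotonin neuron markers were 8671.66 to 9628.52 CPM in the Gad2, Slc17a8, both and neither classes, 5142.84 CPM in the Met class and 1328.97 CPM in the low-Tph2 class. The 6 microglial markers summed to 5.27 CPM in the Slc17a8 class and 0.676 CPM in the Gad2 class. Their sum was 0.229 CPM in the Met class, 0.532 CPM in the low-Tph2 class and at most 1.15 CPM in the others. The 6 vessel markers summed to 13.7 CPM in the Met class, with Vtn at 10.3 CPM, Pdgfrb at 2.51 CPM and Cldn5 at 0, and to at most 5.32 CPM elsewhere. The 5 oligodendrocyte markers in the table summed to 28.8 to 42.1 CPM, and to 70.8 CPM in the low-Tph2 class, and of 5 astrocyte markers all but Aldoc were under 2 CPM. Aldoc was at 533 CPM in the Gad2 class, 408 CPM in the neither class, 385 CPM in the both class, 291 CPM in the low-Tph2 class, 248 CPM in the Slc17a8 class and 180 CPM in the Met class. Their part in the results was not tested.

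The members took 1.25% of all UMIs, and between 1.09% in the low-Tph2 class and 1.29% in the Gad2 class. Their levels ran from 0.207 CPM (Rab32) to 2369 CPM (Syt1), as the plot of levels by role shows. The 10 highest members held 71.4% of the members' UMIs, 23 members were at 100 CPM or more and 21 were under 10 CPM. A UMI was found in every cell for 8 members and in at least 95% of cells for 25, whereas 17 members had one in under 25% of cells. UMIs at 3′ ends do not grow with transcript length, so these levels can be set beside each other, while the full-length reads of the manual cells are compared only within a gene.

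**Figure D1:**
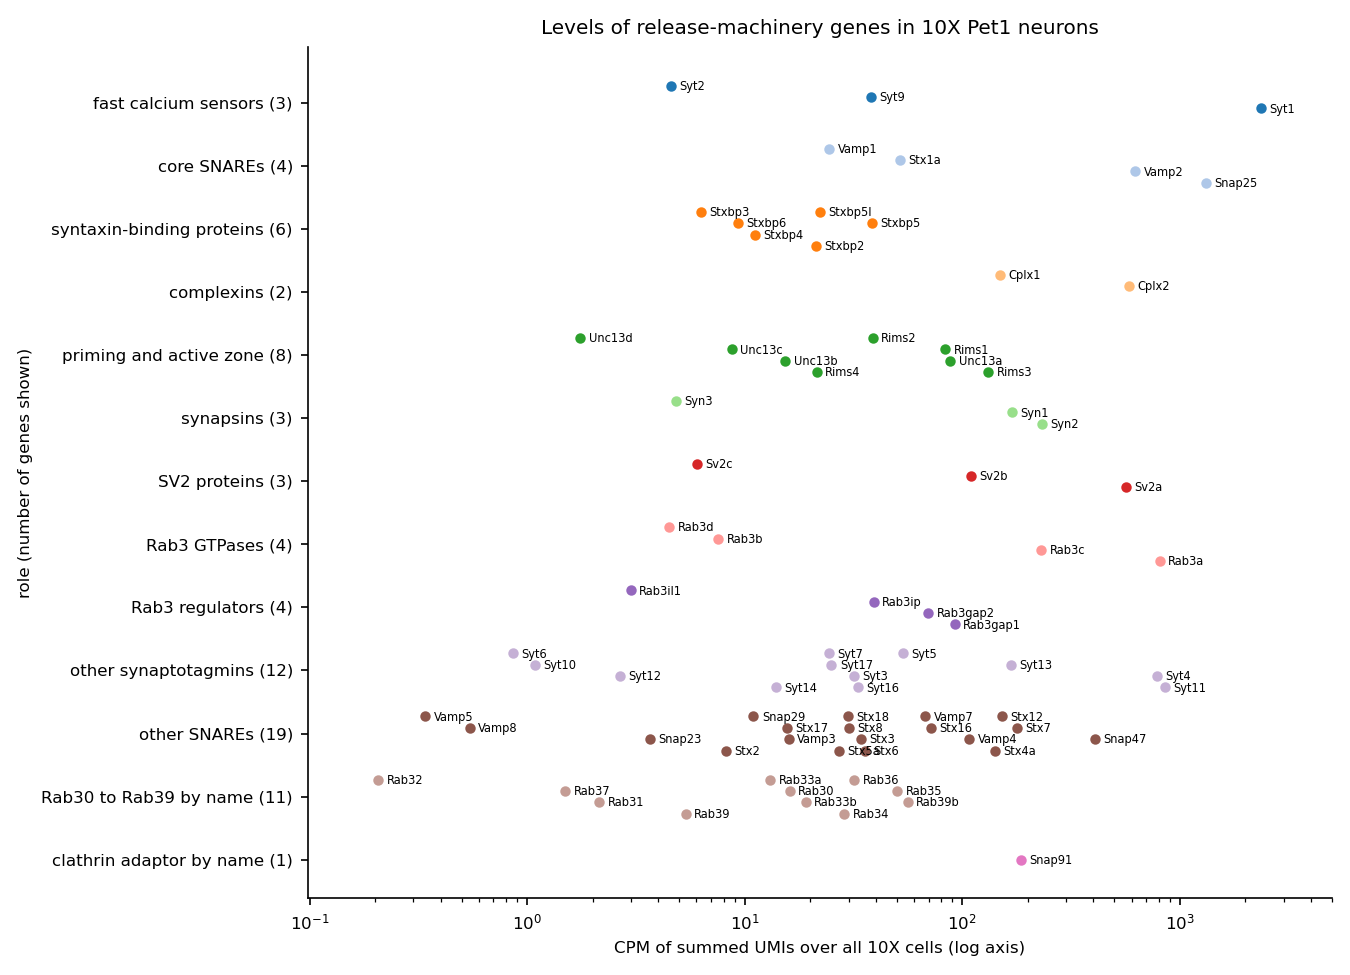
Level of 80 of the 82 genes as CPM of summed UMIs over 2350 10X cells (log axis), 1 point per gene, in rows by role. Within several roles 1 or 2 genes lie far above the rest, such as Syt1 at 2369 CPM against Syt2 at 4.57 CPM.

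Several roles had 1 dominant gene. The calcium sensor Syt1 was the highest member at 2369 CPM, whereas its relatives Syt9 and Syt2 were at 38.1 and 4.57 CPM. Among core SNAREs Snap25 was at 1318 CPM, Vamp2 at 624 CPM, Stx1a at 51.9 CPM and Vamp1 at 24.5 CPM. Cplx2 (585 CPM) exceeded Cplx1 (149 CPM), Sv2a (566 CPM) exceeded Sv2b (110 CPM) and Sv2c (6.05 CPM), and Rab3a (809 CPM) exceeded Rab3c (231 CPM), Rab3b (7.57 CPM) and Rab3d (4.50 CPM). Synapsins were more even, with Syn2 at 232 CPM, Syn1 at 169 CPM and Syn3 at 4.85 CPM. Of the priming genes, Rims3 was at 132 CPM, Unc13a at 88.0 CPM, Rims1 at 83.6 CPM and Rims2 at 38.8 CPM. Syt11 (857 CPM) and Syt4 (785 CPM), synaptotagmins that do not act as fast calcium sensors, were 2 of the 5 highest members.

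Members also differed in how evenly cells held them. Over the 25 members with a median of at least 5 UMIs per cell, the ratio of the 90th to the 10th percentile of CPM across cells ran from 1.89 to 8.07, with a median of 3.11, and counting error widens it for low genes. Syt11 was the most even, at 599 CPM at the 10th and 1130 CPM at the 90th percentile, and Snap25 followed at 876 and 1748 CPM. Sv2b (23.5 and 189 CPM), Cplx1 (39.2 and 270 CPM), Cplx2 (156 and 970 CPM) and Rab3c (80.6 and 426 CPM) had the widest spread. The median count per cell was 31.5 UMIs for Cplx2, against 6 for Sv2b, 7 for Cplx1 and 11 for Rab3c.

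Across the 6 classes, the highest level was under 1.5 times the lowest for 29 of 70 members with at least 500 UMIs and a UMI in every class, at least 2 times for 26 and at least 4 times for 9. Of all 10455 genes held to the same limits, 48.1% were under 1.5 times, 23.8% at least 2 times and 8.05% at least 4 times. The SNARE gene Snap25 lay between 1164 CPM (neither class) and 1433 CPM (Met class), and Sv2a between 492 and 644 CPM. Of the 12 members over 200 CPM, 4 differed by at least 2 times, namely Cplx2 (4.97), Rab3c (4.34), Syn2 (3.60) and Syt4 (2.18).

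The first comparison asked how the machinery differs between Pet1 neurons with Gad2 and those with Slc17a8. Of 71 members with at least 500 UMIs, 1 was at least 2-fold higher in the Gad2 class with an interval clear of 0, against 2.15% of all genes, and 3 were lower, against 2.17%. The median log2 ratio of members was 0.03, beside 0.01 over all 10484 genes with 500 UMIs.

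Syt2, a fast calcium sensor best known from brainstem and spinal synapses, had the widest ratio between these classes of the members compared. It reached the minimum of 500 UMIs, with 620 in all, only through the 390 in the Slc17a8 class, while Vamp8, with 59 UMIs in the Gad2 class and 4 in the Slc17a8 class, was under that minimum and not compared. Syt2 had 22 UMIs in 872 Gad2 cells (0.41 CPM) and the 390 UMIs in 684 Slc17a8 cells (9.26 CPM), a log2 ratio of -4.49 (interval -5.18 to -3.87) and 22.4-fold lower in the Gad2 class. A Syt2 UMI was found in 21 Gad2 cells, none with more than 2. At least 3 UMIs were found in 43 Slc17a8 cells (6.29%, interval 4.59 to 8.37). After thinning to 20000 UMIs per cell, a Syt2 UMI was seen in 0.810% of Gad2 cells and 11.4% of Slc17a8 cells. The log2 ratio was -4.78 in barcode set 1 and -4.34 in set 2.

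Stxbp6 (amisyn), a SNARE-binding protein that restrains fusion, was at 2.44 CPM in the Gad2 class and 15.6 CPM in the Slc17a8 class (log2 ratio -2.68, interval -2.96 to -2.41). Both barcode sets gave nearly the same value, -2.67 and -2.69. Unc13c (Munc13-3), a priming factor known from cerebellar granule cells, was at 5.65 and 12.0 CPM (log2 ratio -1.09, interval -1.30 to -0.88), with -0.90 in set 1, which is inside the 2-fold line, and -1.15 in set 2. Syt17, a C2-domain protein related to synaptotagmins, went the other way, at 35.5 CPM in the Gad2 class and 15.0 CPM in the Slc17a8 class (log2 ratio 1.24, interval 1.11 to 1.37). At least 3 Syt17 UMIs were found in 311 of 872 Gad2 cells (35.7%) and 85 of 684 Slc17a8 cells (12.4%).

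Several members differed by less than 2-fold. Rab3c was at 152 CPM in the Gad2 class and 282 CPM in the Slc17a8 class (log2 ratio -0.89), Syt7, a slower calcium sensor, at 16.7 and 31.2 CPM (-0.91) and Rab3b at 5.88 and 10.5 CPM (-0.83). Cplx2 was at 749 and 465 CPM (0.69), and Stxbp2, a syntaxin-binding protein, at 26.4 and 15.4 CPM (0.78, with 1.38 in set 1 and 0.60 in set 2). Among the abundant genes, Syt1 had a ratio of 0.21, and Snap25, Rab3a, Syn1, Sv2a, Syn2 and Vamp2 lay between -0.12 and 0.08. The both class, which holds 9 of the 14 called doublets, had levels of Syt2 (4.19 CPM), Stxbp6 (10.5 CPM) and Syt17 (25.3 CPM) between those of the Gad2 and Slc17a8 classes.

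**Figure D2:**
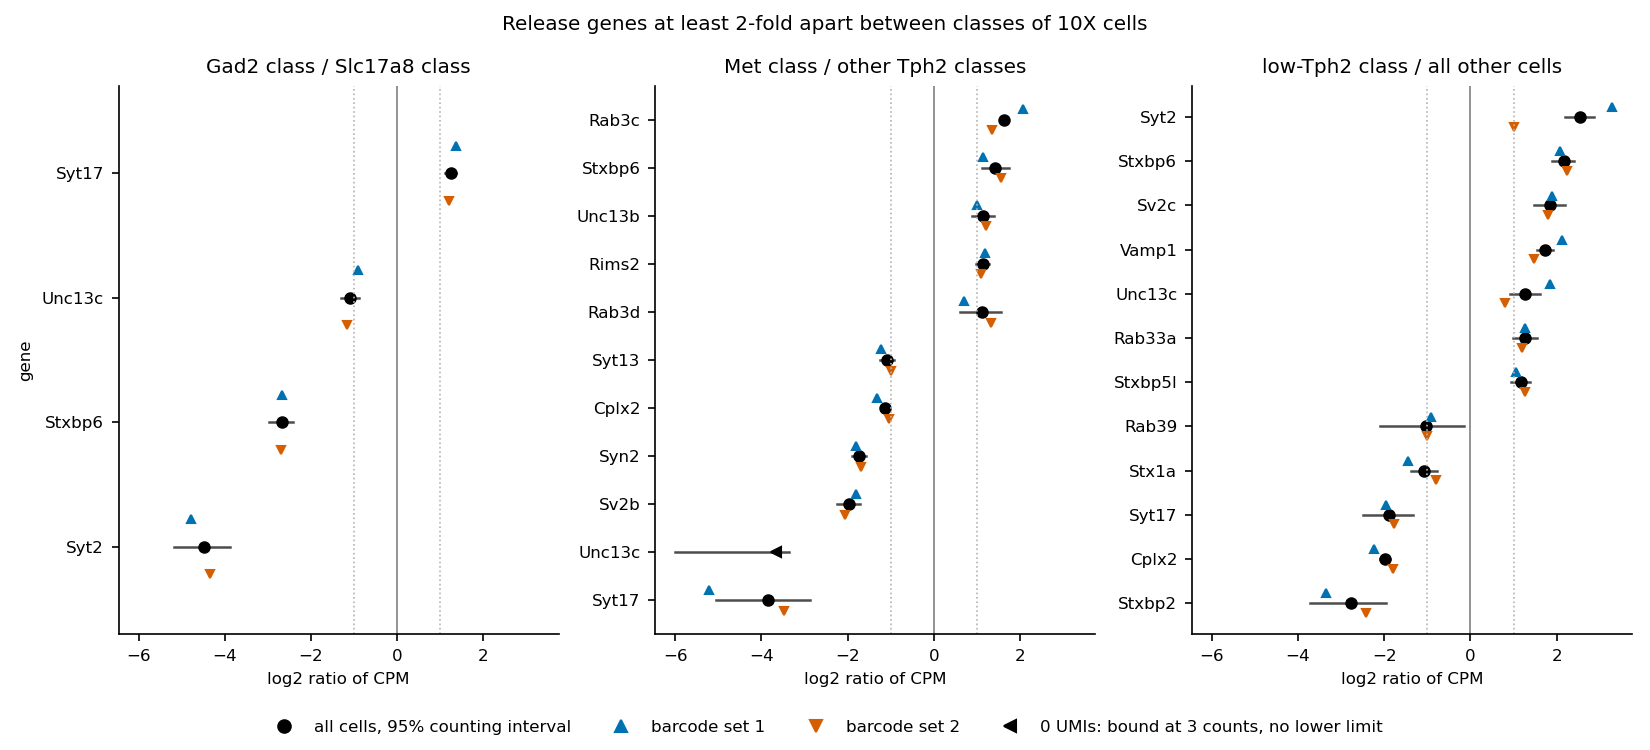
Log2 ratio of CPM for the members at least 2-fold apart in each of 3 comparisons of 10X classes. Black points are all cells with the 95% counting interval, triangles are barcode sets 1 and 2, the arrowhead is a bound from 0 UMIs, and dotted lines mark 2-fold. Rab3c is highest in the Met panel, where Syt17, at 8 UMIs, and Unc13c, a bound from 0 UMIs, lie farthest below 0, and the sets lie apart for Syt2 in the low-Tph2 panel, at 3.28 and 1.02.

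The Met class, 93 cells that also carried Slc17a8 at 296 CPM, was compared with all other classes above the Tph2 limit. Of 71 members 5 were at least 2-fold higher, against 2.38% of all genes, and 6 lower, against 7.63%. The median log2 ratio was 0.04 in members and 0.06 in all genes. Higher were Rab3c, Stxbp6, Unc13b, Rims2 and Rab3d, and lower were Syt17, Unc13c, Sv2b, Syn2, Cplx2 and Syt13.

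Rab3c, a vesicle-tethering GTPase, was at 661 CPM in the Met class and 212 CPM in the others (log2 ratio 1.64, interval 1.58 to 1.69). Its median cell in the Met class was at 607 CPM and its 10th percentile at 375 CPM, above the median of 264 CPM in the Slc17a8 class. The ratio was 2.07 in barcode set 1 and 1.34 in set 2. Against the Slc17a8 class alone, a comparison added after the data were seen, it was 1.23. The order of the classes for Rab3c was Met, low-Tph2, Slc17a8, both, neither and Gad2, and no neighbours in it had overlapping intervals.

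The scaffold Rims2 was at 80.4 CPM in the Met class and 36.7 CPM in the others (log2 ratio 1.13, interval 0.97 to 1.29), and Rims1 at 158 and 81.9 CPM (0.95, interval 0.84 to 1.06), just inside 2-fold. The priming factor Unc13b (Munc13-2) was at 32.7 and 14.8 CPM (1.14, interval 0.88 to 1.39). The other called members rested on few molecules. Stxbp6 was at 21.7 and 8.06 CPM (1.43), but 31 of its 95 UMIs came from 1 cell, and without that cell the ratio was 0.88. Rab3d, with 41 UMIs in 28 cells, had a ratio of 1.11, and 0.98 without the cell with the highest count, 4 UMIs. Against the Slc17a8 class alone 2 members were at least 2-fold higher, Rab3c and Rims1 (1.07), against 2.06% of all genes. In that comparison Rims2, Unc13b, Rab3d and Stxbp6 were at 0.91, 0.82, 0.77 and 0.47.

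Unc13c had 0 UMIs in the 93 Met cells, in either barcode set, and 1107 UMIs (8.69 CPM) in the other classes. Taking 3 counts over the class as the floor, it was at least 12.7-fold lower. Syt17 had 8 UMIs in 8 Met cells (1.83 CPM), against 26.4 CPM (log2 ratio -3.85, interval -5.06 to -2.87). The Met cells had a median depth of 46273 UMIs, and the part of depth in these low counts was not tested.

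Syn2, a synapsin that holds vesicles in the reserve pool, was at 71.5 CPM in the Met class and 237 CPM in the others (log2 ratio -1.73, interval -1.89 to -1.57), with -1.81 in set 1 and -1.68 in set 2. In the other 5 classes Syn2 stayed between 220 and 258 CPM. Its 90th percentile over Met cells was 120 CPM, near the 10th percentile of 113 CPM in the Slc17a8 class. Sv2b was at 28.8 and 113 CPM (-1.97, interval -2.24 to -1.72), Cplx2 at 278 and 609 CPM (-1.13, interval -1.21 to -1.05) and Syt13 at 80.4 and 170 CPM (-1.08, interval -1.24 to -0.93). Against the Slc17a8 class alone 5 members were at least 2-fold lower, against 6.64% of all genes. Syn2 (-1.70) and Sv2b (-1.71) stayed past 2-fold, while Cplx2 (-0.74) and Syt13 (-0.78) came inside 2-fold. Syt2, inside 2-fold in the main comparison of the Met class, was at -1.09. Syt1 was at 1567 and 2426 CPM (-0.63). Rab3b had the opposite sign in the barcode sets, -1.36 in set 1 and 0.96 in set 2, and is given no direction.

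The low-Tph2 class was compared with all other cells. Of 71 members 7 were at least 2-fold higher, against 5.79% of all genes, and 5 lower, against 4.53%. The median log2 ratio of all genes was 0.17 in this comparison and that of members 0.07. With TMM scaling, 6 were higher, against 3.15% of all genes, and 8 lower, against 6.78%. The class had 27329 UMIs per median cell, 4.40% mitochondrial UMIs against 6.26% to 7.16% in the other classes, and oligodendrocyte markers at 70.8 CPM, whose part in these values was not tested. The class carried Slc17a8 at 455 CPM, and against the Slc17a8 class alone, a comparison added after the data were seen, 5 members were higher, against 6.1% of all genes, and 4 lower, against 3.77%.

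The higher members were Syt2, Stxbp6, Sv2c, Vamp1, Unc13c, Rab33a and Stxbp5l. Vamp1, the vesicle SNARE that stands in for Vamp2 at some brainstem and motor synapses, was at 76.4 CPM against 23.0 CPM (log2 ratio 1.73, interval 1.55 to 1.91), and at least 3 UMIs were found in 39 of 131 cells (29.8%). Stxbp6 was at 38.1 against 8.51 CPM (2.16, interval 1.90 to 2.41), and Sv2c at 20.2 against 5.65 CPM (1.84, interval 1.48 to 2.18). Both had nearly equal ratios in the barcode sets, 2.09 and 2.24 for Stxbp6 and 1.89 and 1.81 for Sv2c. Unc13c was at 20.2 against 8.40 CPM (1.27), with 1.85 in set 1 and 0.80 in set 2. Rab33a, a small GTPase, was at 30.3 against 12.6 CPM (1.26), and Stxbp5l (tomosyn-2), which competes for SNAREs, at 47.9 against 21.3 CPM (1.17). Against the Slc17a8 class alone Sv2c (1.85), Vamp1 (1.57), Syt2 (1.34), Stxbp6 (1.28) and Stxbp5l (1.26) stayed past 2-fold, while Rab33a (0.89) and Unc13c (0.75) came inside it, as did Rab39 (-0.96) among the lower members.

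Syt2 was at 23.4 CPM against 4.04 CPM (log2 ratio 2.54, interval 2.19 to 2.86), but the cells were uneven. A single cell held 28 of its 88 UMIs, without which the ratio was 2.00, and it was at 40.9 CPM in barcode set 1 and 8.02 CPM in set 2. At least 3 Syt2 UMIs were found in 8 of 131 cells (6.11%), and after thinning to 20000 UMIs a Syt2 UMI was seen in 20.0% of low-Tph2 cells, against 11.4% of Slc17a8 cells.

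Among the lower members Cplx2 was the one with a high level, at 151 CPM against 598 CPM (log2 ratio -1.99, interval -2.11 to -1.87). Its 10th percentile over cells was 0 CPM, and 1 cell held 56 of its 566 UMIs. Stxbp2 was at 3.19 against 21.8 CPM (-2.77), Syt17 at 6.92 against 25.6 CPM (-1.88), Stx1a, a plasma membrane syntaxin, at 25.0 against 52.6 CPM (-1.07) and Rab39 at 2.66 against 5.43 CPM (-1.03, from 10 UMIs). The general sensor Syt1 was at 1374 against 2398 CPM (-0.80), while the interval of Snap25 held 0 (-0.01, interval -0.05 to 0.03), with ratios of 0.19 and -0.17 in the sets.

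Members under 500 UMIs were not in these counts, and 3 of them, picked out after their values were seen, were at a higher CPM in the low-Tph2 class. Of 117 UMIs of Syt6 and 147 of Syt10 in all cells, 61 (52.1%) and 59 (40.1%) were in these 131 cells, at 16.2 and 15.7 CPM against 0.43 and 0.67 CPM elsewhere. At least 3 UMIs were found in 5 low-Tph2 cells for each gene and in 1 cell outside the class. Syt12 was at 11.2 against 2.44 CPM.

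Rab3c and Stxbp6 had nearly the same order of classes. The order for Stxbp6 was low-Tph2, Met, Slc17a8, both, neither and Gad2, the order of Rab3c with its first classes exchanged, and no neighbours had overlapping intervals, but without the 1 cell named above Stxbp6 was at 14.8 CPM in the Met class, below the 15.6 CPM of the Slc17a8 class. Over the Slc17a8, both, neither and Gad2 classes the genes had the same order, which Syt2 and Rims2 had too, and Rims2 had the order of Rab3c over all 6 classes, with overlap of the neither class and its neighbours. The promoters of Rab3c and Stxbp6 are shown as those of an abundant and a scarce gene with all neighbours apart. The sequences are from RefSeq on GRCm38.p6, from 250 bases before to 50 after a start site, 5′ to 3′ on the gene's strand (minus for both), at chr13:110280157-110280456 for Rab3c, within the gene at chr13:110054187-110280996, and chr12:45074434-45074733 for Stxbp6, at the 5′ end of the gene at chr12:44852484-45074709. Capitals mark the GC box, GGGCGG on either strand.
Rab3c: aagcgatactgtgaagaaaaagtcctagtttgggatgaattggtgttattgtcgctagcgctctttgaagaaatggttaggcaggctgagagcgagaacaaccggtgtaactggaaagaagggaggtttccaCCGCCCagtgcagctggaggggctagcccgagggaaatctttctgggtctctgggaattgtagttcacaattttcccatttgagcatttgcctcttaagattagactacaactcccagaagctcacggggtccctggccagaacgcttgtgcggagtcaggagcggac
Stxbp6: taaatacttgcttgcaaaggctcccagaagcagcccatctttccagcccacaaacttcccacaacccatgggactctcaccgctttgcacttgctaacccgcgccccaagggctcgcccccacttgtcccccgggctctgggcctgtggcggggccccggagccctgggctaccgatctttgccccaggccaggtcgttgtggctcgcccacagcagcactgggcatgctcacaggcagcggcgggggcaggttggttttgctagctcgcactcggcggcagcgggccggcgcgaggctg
Searched on both strands were the GC box, the ETS motif CCGGAAGT, the cAMP response element TGACGTCA and TATAAA. Rab3c had 1 GC box, Stxbp6 had none, and neither had the other motifs. Over 82 promoters of 63 members a GC box was in 69.5%, beside 35.7% of all 32851 promoters of this length, the ETS motif in 0 beside 3.89%, the cAMP element in 2.44% beside 1.79% and TATAAA in 7.32% beside 13.6%.

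Shares within paralog families remove differences in total machinery, and the plot of shares shows them. Of 26 genes in 9 families, 19 had a share at least 1.5 times higher in the highest of the 6 classes than in the lowest. This count has no share over all genes beside it and makes no allowance for counting error. Among the 26 are scarce genes such as Syn3 and Sv2c, with 13 and 15 UMIs in the Met class, so the count is not read as a trait of the families. Cplx1 made 16.0% of complexin UMIs in the Gad2 class, 25.8% in the Slc17a8 class, 37.8% in the Met class and 42.4% in the low-Tph2 class, although Cplx1 itself ranged only from 111 to 176 CPM. Rab3c made 16.3% of Rab3 UMIs in the Gad2 class and 39.1% in the Met class. Syn1 made 64.4% of synapsin UMIs in the Met class, the one class where it exceeded Syn2, and 35.0% to 42.4% in the other 5. Sv2b made 4.26% of SV2 UMIs in the Met class, against 14.3% to 18.3% in the other classes. Vamp1 reached 14.7% of Vamp1 and Vamp2 UMIs in the low-Tph2 class, against 2.84% to 6.02% elsewhere. Unc13c made 24.1% of Unc13a to Unc13c UMIs in the low-Tph2 class and 0 in the Met class. Syt1 made at least 95.6% of sensor UMIs in every class.

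**Figure D3:**
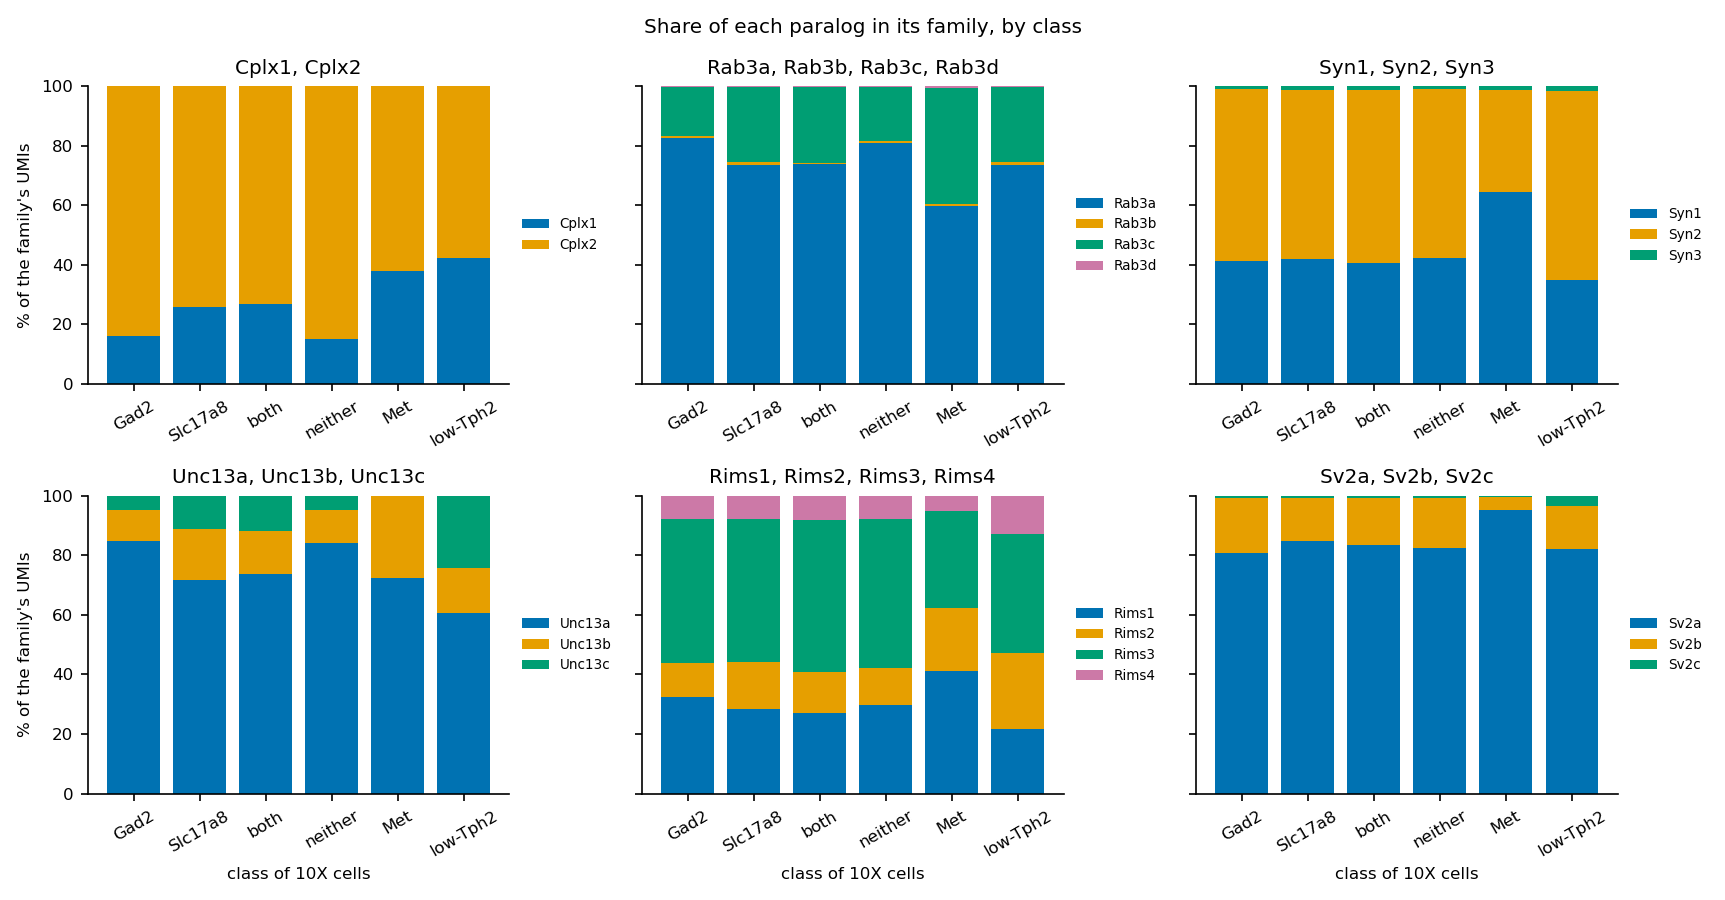
Percent of each family's summed UMIs from each paralog, stacked to 100%, in the 6 classes of 10X cells for 6 families. The Met class has the largest shares of Rab3c (39.1%), Syn1 (64.4%) and Sv2a (95.2%), and the low-Tph2 class those of Cplx1 (42.4%) and Unc13c (24.1%).

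From a list of other release genes, none of them members, 35 had 500 UMIs. Of these 0 were higher and 1 lower in the Gad2 class, against 2.15% and 2.17% of all genes, 1 higher and 2 lower in the Met class, against 2.38% and 7.63%, and 5 higher and 3 lower in the low-Tph2 class, against 5.79% and 4.53%. Synpr, Ston2 and Rimbp2 were picked from these after their values were seen. Synpr (synaptoporin), a vesicle membrane protein, differed in every comparison. It was at 5.03 CPM in the Gad2 class, 13.8 CPM in the Slc17a8 class, 96.9 CPM in the Met class and 145 CPM in the low-Tph2 class. In the Met class Ston2, an adaptor that retrieves synaptotagmin, had 1 UMI, and Rimbp2, which couples RIMs to calcium channels, was at 59.0 against 183 CPM (log2 ratio -1.64). Rimbp2 was lower in the low-Tph2 class too, at 52.2 against 179 CPM.

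The 8 manual groups were read with full-length libraries of 756872 to 7664103 reads per cell. Under 2000000 reads were found in 4 of the 9 Npy2r rDR and 4 of the 8 Crh rDR cells and in no cell of the other groups. All 82 members were in the table, and 73 had a mean of at least 5 CPM. A member was counted where medians of log2(CPM + 1) differed by at least 1, a scale that understates changes of low genes. Summed markers listed for other cell types moved with some groups. The astrocyte sum is not split by gene here. In the droplet cells that sum was nearly all Aldoc. Aldoc made 533 of 534 CPM in the Gad2 class and 180 of 184 CPM in the Met class. The paper reports no sign of contamination by other cells in the manual libraries. Summed astrocyte markers had a median of 2312 CPM in Sert dmDR, 1605 CPM in dlDR and 1022 CPM in vmDR cells, 2599 CPM in Crh rDR, 1647 CPM in Npy2r rDR and 734 CPM in Npy2r cDR cells, and 636 CPM in P2ry1 and 900 CPM in Sert cDR cells. Summed oligodendrocyte markers had a median of 0 in P2ry1 cells and 15.4 to 44.3 CPM in the other groups, highest in Sert cDR cells. Their part in the comparisons was not tested.

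The P2ry1 cDR cells were compared with the Sert cDR cells, which share their region. Met reads were found in 9 of 10 P2ry1 cells (median 86.8 CPM) and in 2 cells of the other groups, at 3.45 CPM or less. Of 73 members 6 were higher, against 11% of all genes, and 28 lower, against 34.1%. P2ry1 cells had the fewest genes detected, a median of 7947 against 9269 in Sert cDR cells, and the part of this in the lower calls was not tested. The groups did not overlap for 4 members: 1 above, against 0.303% of all genes, and 3 below, against 0.763%.

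Rab3c was the member above. It was at 305, 533 and 811 CPM in the lowest, median and highest P2ry1 cell and at 93.6, 194 and 236 CPM in Sert cDR cells, a difference of 1.41 on the log2 scale. The lowest P2ry1 cell was above 52 of the 60 cells of all other groups. Syn2 was at 0, 38.7 and 105 CPM in P2ry1 cells and at 235, 327 and 427 CPM in Sert cDR cells (-3.05). The highest P2ry1 cell lay below every one of the 60 other cells, whose lowest was at 115 CPM. Cplx2 was at 84.9, 201 and 237 CPM against 441, 510 and 610 CPM (-1.34), and 45 of the 60 other cells were above the highest P2ry1 cell. Syt17 had no reads in any of the 10 P2ry1 cells and was at 23.7, 40.4 and 52.4 CPM in the 6 Sert cDR cells, with reads in 50 of the 60 other cells.

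These 4 members had the same direction in the Met class of 10X cells, which came from mice of other genotypes and another library type. Other members were less clear. Rims2 was at 22.7, 318 and 949 CPM in P2ry1 cells and 88.3, 150 and 208 CPM in Sert cDR cells (1.09), Rims1 at 36.8, 121 and 265 CPM against 30.4, 41.9 and 127 CPM (1.51) and Sv2b at 0, 19.1 and 203 CPM against 0.46, 54.1 and 73.9 CPM (-1.44). Unc13c had no reads in P2ry1 cells, but only 2 of 6 Sert cDR cells had any. Of members higher in the Met class, Unc13b went the other way, at a median of 19.6 against 63.6 CPM (-1.86), as did Rab3d, at 0 against 5.95 CPM (-2.76), and Stxbp6 was at 6.12 against 6.34 CPM (-0.08). The widest median differences were those of Rab3b (-5.68, at 0.50 against 76.6 CPM), Syt17 (-5.36), Stx2 and Rab3ip (-4.65 each), Rims4 (-4.16) and Stxbp2 (-3.53).

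**Figure D4:**
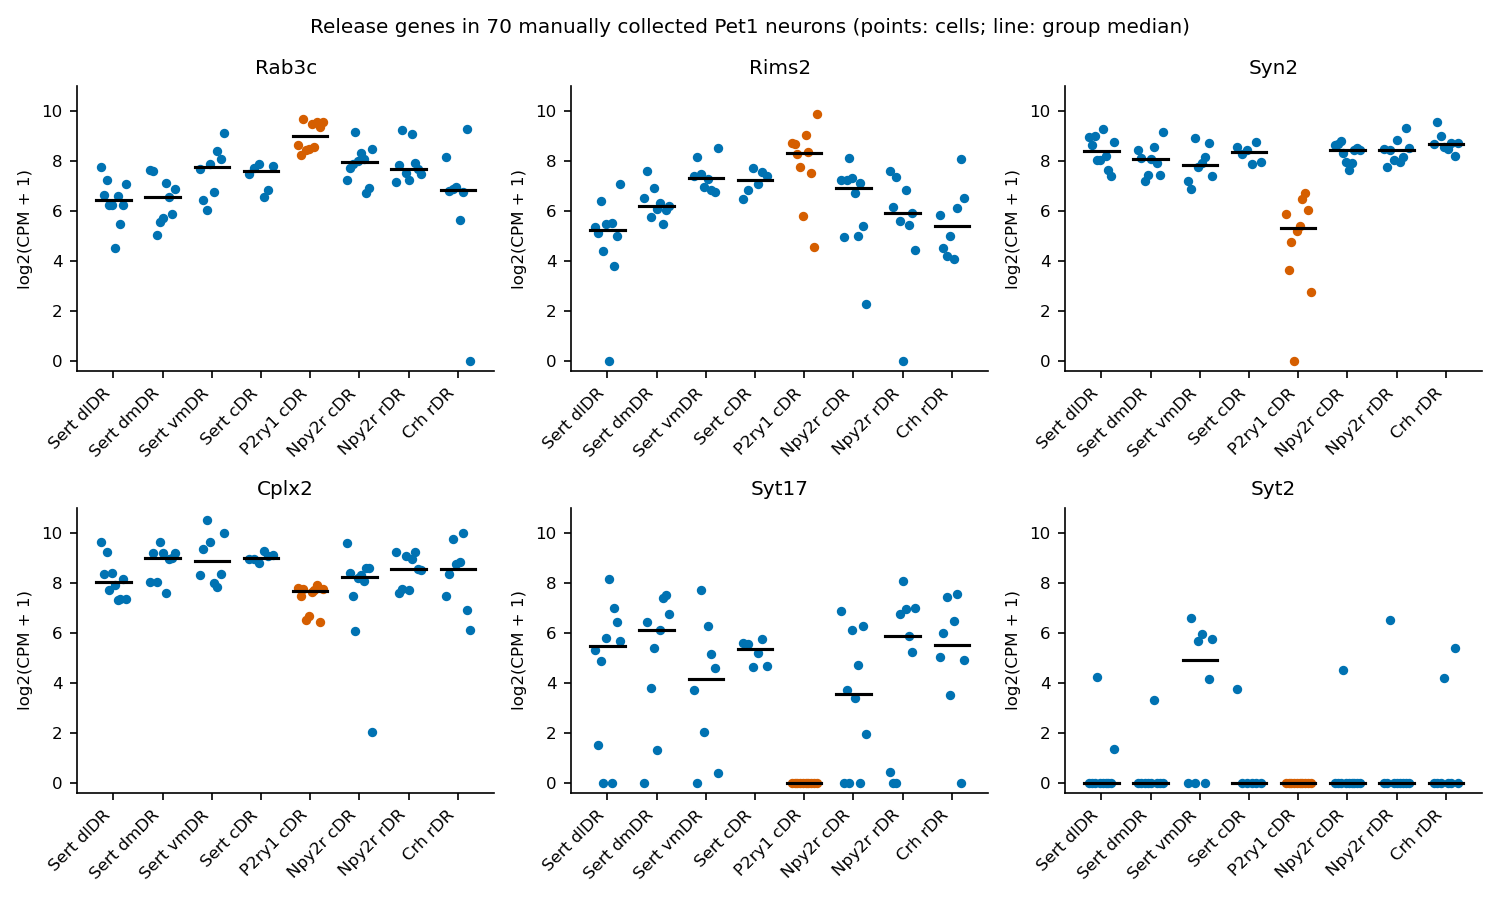
log2(CPM + 1) of 6 members in 70 manual cells, 1 point per cell, with the group median as a line and P2ry1 cDR cells in orange. Rab3c has its highest and Syn2 its lowest median in P2ry1 cells, where Syt17 is at 0 in 10 of 10, and 5 of 8 Sert vmDR cells have Syt2 reads.

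Among Sert cells of the 3 other regions, the dmDR and vmDR were compared first. Of 73 members 10 were higher in the dmDR, against 13.5% of all genes, and 11 lower, against 13.7%. The groups overlapped for every member, while 0.0293% of all genes lay above and 0.0293% below without overlap. Syt2 differed most on the lower side. It had reads in 5 of 8 vmDR cells (median 33.6 CPM, highest 94.2 CPM) and in 1 of 9 dmDR cells, at 8.99 CPM. Over all groups 8 of 62 cells outside the vmDR had Syt2 reads. In the vmDR 2 of 4 cells at day 63 and 3 of 4 at day 90 had reads. Slc17a8 was at a median of 287 CPM in vmDR cells and 0 in dmDR cells. Stxbp2 was at 14.8, 126 and 191 CPM in dmDR cells and 0, 1.27 and 158 CPM in vmDR cells (5.93), with reads in 9 of 9 and 5 of 8 cells. Rab3c was at a median of 93.7 CPM in the dmDR and 218 CPM in the vmDR (-1.21), Rims2 at 71.8 and 161 CPM (-1.16), Vamp1 at 20.9 and 70.8 CPM (-1.68) and Syt17 at 67.2 and 17.6 CPM (1.94). Wide differences in low genes were also seen for Rims4 (3.27), Vamp3 (-3.05), Rab3d (2.86) and Stx17 (-2.46).

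The dlDR and dmDR groups differed in 5 members higher in the dlDR, against 8.38% of all genes, and 15 lower, against 16.9%, and the groups overlapped for every one of the 73 members and for all genes. The widest were Unc13c (-3.69), Stx2 (-3.48), Syt12 (-3.41), Stx17 (3.15), Stxbp4 (-3.15) and Rab3d (-3.09), in each of which the lower group's median was at 1.43 CPM or less. Stxbp4 was at 1.29, the opposite direction, in cells of day 63 alone. Abundant members were close, with Snap25 at medians of 3201 and 3248 CPM and Syt1 at 1508 and 1607 CPM.

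Npy2r cells of the cDR and rDR differed in 9 members higher in the cDR, against 15.4% of all genes, and 12 lower, against 14.1%. The widest were Stx2 (4.22), Stxbp5l (-3.87), Unc13b (-3.83), Syt14 (3.48), Stxbp3 (3.44) and Rab3b (-2.93). Syt14 was at -0.05 without cells under 2000000 reads, and Syt17, at -2.33 with all cells, was at 3.10. Crh and Npy2r cells of the rDR differed in 13 members higher in Crh cells, against 23% of all genes, and 3 lower, against 7.26%. These Crh cells (days 83 and 119) and Npy2r cells (days 77 and 87) share no postnatal day, so age and Cre line cannot be told apart. The widest were Stx2 (3.54), Snap23 (3.26), Stx17 (3.25), Unc13c (3.14), Rab3b (2.93) and Stxbp3 (2.29), and Stx2 and Unc13c were at -0.04 and -0.73 without the shallow cells. The groups of both comparisons overlapped for every member, and 0.00978% of all genes were below without overlap in the cDR and 0.00978% above in Crh cells.

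Across the 8 groups, medians spread most, on the log2(CPM + 1) scale, for Rab3b (6.26), Rab3ip (6.23), Syt17 (6.09), Stxbp2 (5.93), Rab33b (5.78), Syt2 (4.92), Unc13b (4.81), Rab30 (4.75), Stx2 (4.65) and Rims4 (4.57), each of which had a group with a median of 1.35 CPM or less, Syt17 in P2ry1 cells. Cplx1 and Cplx2 spread by 1.02 and 1.34. Snap25 lay at group medians from 2602 CPM (Sert cDR) to 4539 CPM (P2ry1 cDR), Syt1 from 1121 CPM (P2ry1 cDR) to 1905 CPM (Sert vmDR), and Cplx1 from 298 CPM (Npy2r cDR) to 601 CPM (Sert vmDR). For Snap25 and Syt1 the lowest to highest cells of all 8 groups overlapped.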

How the data were processed

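The data were counts of UMIs per gene in 10X (Single Cell 3′ v3) cells and counts of reads per gene in manually collected cells. For the former, the authors mapped reads to mm10 with Cell Ranger 3.0.2 and deposited the matrix of counts after removing genes and cells of low quality in R 3.5.3. For the latter, the authors mapped full-length reads with STAR 2.5.4 to mm10 and deposited read counts.

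Here, the UMIs of each class of 10X cells were summed and scaled to CPM, with the log2 ratio of 2 classes and its 95% exact conditional binomial interval. Genes with 500 UMIs over all cells were compared, and those 2-fold apart with an interval clear of 0 were counted. UMIs come from PCR-amplified libraries and cells of 1 table, so intervals and the floor of 3 counts cover counting error only. In manual cells, medians of log2(CPM + 1) were compared for genes with a mean of at least 5 CPM, and those 1 apart were counted. Neither the 10X cells nor the manual cells are tied to animals, so nothing was tested. All samples in the labels were grouped by Cre line and region as their titles state, and the count columns named Crf, an older symbol of Crh, were taken as the Crh samples of the same numbers.

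The genes, lists, classes and comparisons were chosen with earlier results of these data known. Genes named were the core genes of each role and those past 2-fold in a 10X comparison. From the manual cells, they were the 6 with the widest median difference in each comparison and the 10 with the widest range of group medians. Other genes, such as Syt7, Synpr, Ston2 and Rimbp2, were named after their values were seen. Shares of cells with a UMI were thinned to 20000 UMIs per cell, which left out 53 cells. Doublets were called with Scrublet (scanpy 1.11.5) in each barcode set at a rate of 5% and kept. The scripts were tested on simulated data. Tools were python 3.11.15, numpy 2.4.6, scipy 1.17.1, pandas 2.3.3, matplotlib 3.10.9 and, for TMM scaling, edgeR 4.0.16 in R 4.3.3. Gene positions are from GENCODE M21 (mm10), which held 81 of the 82 symbols, and promoters from RefSeq, which held 63. Alternatives changed the UMI limits of classes, the Tph2 limit, the gene minimum, the fold, the scaling, the pseudocount, the barcode set, the age and the comparison class. A few genes of the set enter the counts and sums but are not reported here by name.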

Additional observations from a re-analysis of the deposited data

Results flagged for a closer look

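Single manual cells far from the rest of their group, by Dixon's criterion on log2(CPM + 1), were found in 19 of 94 sets of 1 gene in 1 group, over 12 genes, where chance gives about 1 in 20 for values without the many zeros of these sets, in which a lone cell with reads stands apart by construction. On this scale the lowest cell was at 2.02 for Cplx2 in Npy2r cDR cells, at 10.71 for Snap25 in Sert vmDR cells, at 3.98 for Stxbp2 in Sert dmDR cells and at 1.08 for Stxbp6 in Sert cDR cells. It was at 0 for Rab3c in Crh rDR cells, for Rims2 in Sert dlDR and Npy2r rDR cells, for Stxbp2 in Crh rDR cells and for Sv2b in Npy2r cDR and Npy2r rDR cells. The highest cell of Stxbp6 stood apart at 4.90 in Sert dmDR, 2.89 in Sert vmDR, 6.75 in Npy2r cDR and 5.09 in Crh rDR cells. The highest cell of Syt2 stood apart at 4.23 in Sert dlDR, 3.32 in Sert dmDR, 3.73 in Sert cDR, 4.51 in Npy2r cDR and 6.51 in Npy2r rDR cells, groups in which at most 2 cells had Syt2 reads.

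The barcode sets had intervals on opposite sides of 0 for Snap25 between the low-Tph2 class and all other cells (log2 ratio 0.19 in set 1 and -0.17 in set 2). The difference between sets was not tested.

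Some symbols of the same families had reads in manual cells but were outside the 82 genes. The cell with most reads held 8 of Cplx4 (in 1 cell), 505 of Stx11 (in 2 cells), 120 of Stx19 (in 5 cells), 21 of Syt15 (in 5 cells) and 74 of Vamp9 (in 14 cells).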

How the results depend on the processing

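No member at least 2-fold apart in a 10X comparison changed sign under these alternatives, whereas some inside 2-fold did, such as Rab3b and Syt2 in the Met class. Percentages are the share of all genes counted at the same setting. Between the Gad2 and Slc17a8 classes, 1 member was higher and 3 lower. There were 2 higher (2.23%) in barcode set 1 alone, 3 higher (4.15%) and 6 lower (4.58%) with no minimum of UMIs, 4 higher (4.22%) and 8 lower (4.1%) at 1.5-fold, and 0 lower (1.43%) after thinning to 20000 UMIs, where 8223 genes in place of 10484 reached the UMI minimum. For the Met class (5 and 6) there were 2 higher (1.62%) with a limit of 1 UMI, 2 higher (2.06%) against the Slc17a8 class alone, and 9 higher (7.69%) and 11 lower (12.1%) at 1.5-fold. For the low-Tph2 class (7 and 5) there were 4 higher (3.95%) after thinning, 11 higher (9.77%) with no minimum, 13 higher (18.3%) and 11 lower (8.82%) at 1.5-fold, 3 lower (2.73%) with a Tph2 limit of 1000 CPM, 3 lower (3.76%) in barcode set 2 alone and 8 lower (6.78%) with TMM.

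In manual cells a pseudocount of 10 gave 4 higher (6.84%) and 6 lower (6.43%) for Npy2r cDR against rDR, 5 higher (11.1%) for Crh against Npy2r, 1 higher (2.84%) and 6 lower (5.96%) for dlDR against dmDR and 4 higher (5.74%) and 5 lower (5.48%) for dmDR against vmDR. A 4-fold limit gave 2 higher (4.15%) and 16 lower (20.9%) for P2ry1 against Sert and, in the order above, 4 (7.53%) and 5 (6.35%), 7 (12.4%) and 1 (2.41%), 2 (3.1%) and 8 (7.64%), and 3 (6.14%) and 4 (5.51%). Means of log2 values gave 5 lower (4.83%) for Crh against Npy2r and 2 higher (6.89%) for dlDR against dmDR. Cells of 1 age gave 19 higher (26%) for Npy2r cDR at day 77, 8 higher (12.8%) for dlDR at day 63 and 16 higher (19.1%) for dmDR at day 90. Without cells under 2000000 reads 7 were lower (11.3%) in Crh cells. Of the differences of named genes 7 reversed. Without those cells Syt14 (-0.0503) and Syt17 (3.10) did in Npy2r cells and Stx2 (-0.0428) and Unc13c (-0.73) in Crh cells. At 1 age Syt17 did in Npy2r cells (1.86, day 77), as did Stxbp4 (1.29, day 63) and Syt13 (0.73, day 90) between dlDR and dmDR. The cause was not tested. The Slc17a8 class as the comparison, the leaving out of cells under 2000000 reads and of the cell with most UMIs were chosen after seeing the data. No paired analysis was possible because the values come from no test and the shared replicate numbers name single cells. As an alternative, dlDR and dmDR, dmDR and vmDR, and Npy2r cDR and rDR cells were compared within a shared postnatal day. P2ry1 and Sert cDR cells share day 63 with 1 P2ry1 cell and were not compared in this way. Crh rDR cells (days 83 and 119) and Npy2r rDR cells (days 77 and 87) share no day. Members under 500 UMIs were left out of the counts for lack of depth.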
